A study of Mus musculus with 6 samples.

Results

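The insulin-like growth factor (IGF) system was followed through 10 genes: the ligands Igf1 and Igf2, the receptors Igf1r and Igf2r, and the binding proteins Igfbp2, Igfbp3, Igfbp4, Igfbp5, Igfbp6 and Igfbp7. They were chosen by name and read from the 14 array probes whose RefSeq accession mapped to 1 of these genes, among 55681 non-control probes and 21368 named genes. Of the 14 probes, 12 were bright enough to test, which covered 9 of the 10 genes; Igfbp3 was left out by that filter. The samples were melanocyte stem cells of the skin, the reserve from which hair pigment cells arise, sorted from male mice as cells with green fluorescence and low side scatter. There were 3 samples of wild-type (WT) mice and 3 of K14-SCF Tg mice. The transgene places stem cell factor (SCF), which is the ligand of KIT, under the keratin 14 (K14) promoter, active in keratinocytes of the basal epidermis. All 6 samples carry the green fluorescent marker used for sorting. Its driver, the age of the mice and whether animals were pooled are not given in the sources used here. Each sample was hybridised with 1 dye to its own Agilent array, and a level below is log2 of the spot's processed signal over the array's 75th percentile. The labels number the replicates without tying them to animals, so p-values describe only the spread between these arrays, which may be technical.

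IGF1 and IGF2 are secreted ligands that signal through the receptor tyrosine kinase IGF1R, which feeds the PI3K, AKT and MAP kinase chains of growth and survival. IGF2R, the mannose 6-phosphate receptor, carries lysosomal enzymes and removes IGF2 from the cell surface without such a signal. The secreted binding proteins hold IGFs in the matrix and the circulation and can block or prolong their action, until proteases such as PAPPA cut them and release the ligand. In skin, fibroblasts and the dermal papilla are known sources of IGF1, which sustains follicle growth.

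Igfbp2 and Igfbp5 lie next to each other on chromosome 1, with 0 annotated genes between them in the RefSeq table of GRCm38.p6, and Igfbp5 was the 1 tested member whose genotypes did not overlap. The 250 bases before the start of both genes are shown for this neighbouring pair, together with those of Igf2r, whose window held the core of the M-box, the element that MITF binds in pigment genes. The sequences are from RefSeq (GRCm38.p6) and run 5′ to 3′ on the gene's strand. Capitals mark matches, on either strand, to the motif TATAAA of the TATA box, to its variant TATTTAA, which was added after the Igfbp5 sequence had been read, to the M-box core CATGTG, to the E-box motif CACGTG or to the GC box motif GGGCGG. No 2 of these motifs overlap in the windows shown.

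Igfbp5, chr1:72874866-72875115, minus strand: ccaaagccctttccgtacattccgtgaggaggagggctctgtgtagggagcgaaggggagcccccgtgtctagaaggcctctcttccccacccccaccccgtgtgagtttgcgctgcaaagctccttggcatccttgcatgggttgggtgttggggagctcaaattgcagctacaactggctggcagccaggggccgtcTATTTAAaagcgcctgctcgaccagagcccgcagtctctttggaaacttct
Igfbp2, chr1:72824230-72824479, plus strand: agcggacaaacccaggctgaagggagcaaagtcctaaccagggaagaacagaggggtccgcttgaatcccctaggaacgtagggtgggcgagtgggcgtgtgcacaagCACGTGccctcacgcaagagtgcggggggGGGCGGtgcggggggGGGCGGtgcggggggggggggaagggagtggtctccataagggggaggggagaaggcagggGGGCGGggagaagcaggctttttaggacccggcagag
Igf2r, chr17:12769707-12769956, minus strand: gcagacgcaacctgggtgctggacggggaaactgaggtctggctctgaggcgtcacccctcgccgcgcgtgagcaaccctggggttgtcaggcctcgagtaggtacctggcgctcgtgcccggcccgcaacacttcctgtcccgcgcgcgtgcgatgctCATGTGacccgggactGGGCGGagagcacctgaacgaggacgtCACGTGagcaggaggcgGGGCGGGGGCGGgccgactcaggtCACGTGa

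The Igfbp5 window held 1 match, TATTTAA, beginning 51 bases before the start, a sequence found in 4.18% of all 32851 promoter windows of this length. The Igfbp2 window held 1 CACGTG (in 6.02% of all windows) and 3 GGGCGG (32.7%), and a second annotated start of Igfbp2 had no match. The Igf2r window held CATGTG (12.3% of all windows), 2 CACGTG and 3 GGGCGG. The 2 neighbours therefore differ in these letters, with a GC box in the Igfbp2 window and none in that of Igfbp5. Among the 10 genes, the 250 bases before at least 1 start held TATAAA in 2 (12.4% of all windows), TATTTAA in 1, CATGTG in 1, CACGTG in 2 and GGGCGG in 5. These counts are per gene and the shares per window. Genes with more than 1 annotated start, such as Igf2 and Igfbp2, had more windows in which to match. These matches describe sequence, and no binding was measured here.

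Per array, 43636 (78.4%) to 48520 (87.1%) probes stood well above background and 0 spots were saturated. Precision is limited by there being 3 arrays per genotype. Pearson's r between arrays across the tested probes, which are not independent, was 0.906 to 0.917 within WT, 0.923 to 0.936 within Tg and 0.910 to 0.927 between the genotypes. The pigment lineage markers Mitf, Dct and Kit were well above background on 6 of 6 arrays, and the summed level of 11 lineage markers (relative to the 75th percentile) was 295 to 381 in WT and 282 to 334 in Tg. Ednrb, the endothelin receptor of the pigment lineage and the smallest p of that list, was lower in Tg without overlap, at 4.76, 4.68 and 4.67 in WT and 4.10, 4.16 and 3.91 in Tg (log2 fold change -0.65, SE 0.21, and -0.71 at another probe; limma, unadjusted p = 0.0209, adjusted p = 0.822). Limma, fitted over 47709 probes and 18368 genes with Benjamini-Hochberg adjustment, called 1 gene higher in Tg (Hpse, adjusted p = 0.0203; 0.00544% of genes) and 0 lower (0.0%). The Hpse call was lost, leaving 0 genes called, when any 1 array was left out. At an unadjusted p under 0.05 it counted 524 genes higher (2.85%) and 471 lower (2.56%). Groups without overlap were seen in 942 genes higher (5.13%) and 993 lower (5.41%) in Tg.

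Of the 9 tested members, limma called 0 in either direction (adjusted p 0.719 to 1.00), and 0 were higher and 1 lower at an unadjusted p under 0.05. The last count was 2, with Igfbp7, without WT replicate 1, which equals a fit with slide as a block, and 0 without both arrays of slide row 2. Likewise, 0 members were higher without overlap and 1 was lower without overlap, against the 5.41% of all genes just given. The log2 fold change, always Tg minus WT, was negative for 7 members and positive for 2, with a median of -0.31. Of all 18368 genes 9439 were negative and 8929 positive, with a median of -0.01. When 1 array was left out, Igf1, Igfbp2 and Igfbp4 could turn positive, and Igf2 and Igfbp6 negative.

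**Figure D1:**
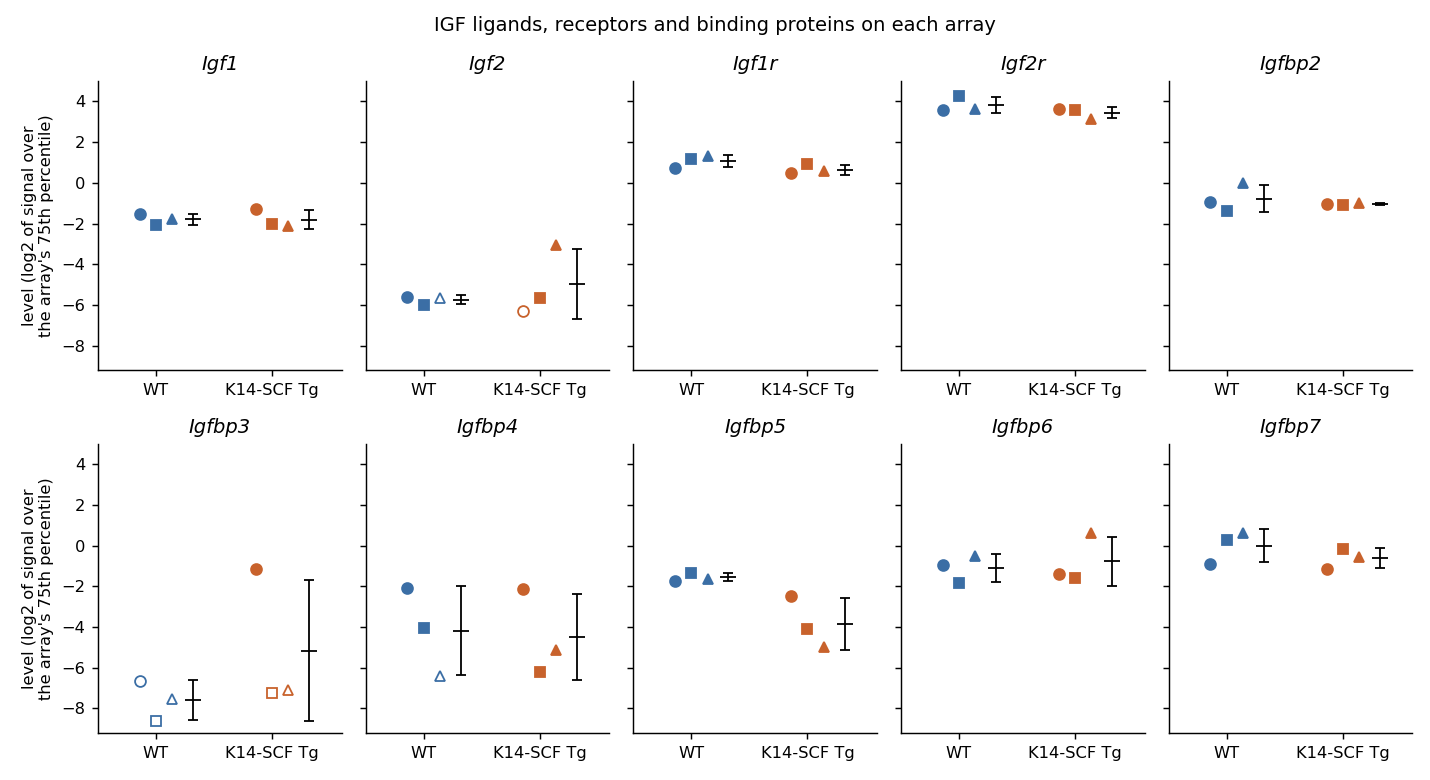
Level of each IGF gene on the 6 arrays (y axis, log2 of signal over the array's 75th percentile; circles, squares and triangles are replicates 1, 2 and 3; open symbols are not well above background; bars are mean ± SD, n = 3). Igfbp5 separates the genotypes, Igfbp4 spreads over more than 4 log2 units in both, and Igfbp3 is well above background on 1 Tg array. Panels are different probes, whose levels cannot be set against each other.

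Igfbp5 encodes a binding protein that sticks to extracellular matrix. It stood at -1.73, -1.34 and -1.62 on WT replicates 1 to 3 and at -2.49, -4.08 and -5.00 on Tg replicates 1 to 3. Every Tg array lay below every WT array, all 6 were well above background, and the Tg arrays were spread 2.52 log2 units apart against 0.39 for WT. The means were -1.56 ± 0.20 in WT (SD, n = 3) and -3.86 ± 1.27 in Tg (SD, n = 3). The log2 fold change was -2.29 (SE 0.64, 95% interval before adjustment -3.87 to -0.71), a level 4.9-fold lower in Tg. It did not pass over all probes (limma, unadjusted p = 0.0121, adjusted p = 0.719), and the exact 2-sided permutation test gave p = 0.10, the smallest that 3 against 3 arrays allow. The log2 fold change was -2.98 without Tg replicate 1, -1.72 without Tg replicate 3 and -1.64 with normexp background correction of the median signals, each with the Tg mean below that of WT.

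Markers of fibroblasts, cells that also make Igfbp5, were read on the same arrays, although the sort kept only cells with green fluorescence and low side scatter. The summed level of 18 tested fibroblast and dermal papilla markers (of 19 listed) was 79.4, 52.0 and 35.2 on WT replicates 1 to 3 and 29.2, 14.9 and 13.9 on Tg replicates 1 to 3, with 15 to 18 of the 18 above background on a WT array and 16 to 18 on a Tg array. Every Tg array was again below every WT array, and within Tg the order of the sums was that of Igfbp5, but within WT Igfbp5 was lowest on replicate 1, where the sum was highest. The sum adds signals of different probes, and 3 collagen genes, Col1a1, Col1a2 and Col3a1, made up 65.8 of the 79.4 on WT replicate 1. Without them the other 15 markers summed to 13.6, 8.49 and 13.2 in WT and to 8.82, 6.60 and 6.97 in Tg, so that the genotypes overlapped and the Tg order was no longer that of Igfbp5; this split was chosen after the values were seen. Of the 18 markers 12 had negative and 6 positive log2 fold changes, and 0 were called by limma. Without overlap 5 were lower and 2 higher, against 5.41% and 5.13% of all genes. At an unadjusted p under 0.05 in limma 6 were lower and 1 higher, against 2.56% and 2.85% of all genes. Thy1, a surface protein of fibroblasts and other cells, read 1.44, 1.22 and 1.56 in WT and -0.76, 0.34 and -0.43 in Tg (log2 fold change -1.69, SE 0.34; limma, adjusted p = 0.564), lower without overlap. Col5a2, a minor collagen chain, was higher without overlap (1.24, SE 0.29, limma adjusted p = 0.611). It read close to background, at -5.89, -6.19 and -6.58 in WT and -4.97, -4.72 and -5.25 in Tg, with 2 WT and 3 Tg arrays above it. Col1a2, a chain of type I collagen, stood at 5.13, 4.66 and 3.71 in WT and at 3.45, 2.12 and 2.32 in Tg (log2 fold change -1.87, SE 0.52), whereas Pdgfra, a fibroblast surface receptor, had a log2 fold change of 1.27 (SE 0.99), with 2 WT and 2 Tg arrays above background. The pericyte marker Rgs5 read -0.82, -3.26 and -2.37 in WT and -6.86, -2.73 and -8.34 in Tg, so the genotypes overlapped. Its log2 fold change was -3.82 (SE 1.51; limma, adjusted p = 0.901), with 3 WT arrays and 1 Tg array above background. The sums of 11 pericyte and smooth muscle markers overlapped, at 5.0 to 7.03 in WT and 6.09 to 9.47 in Tg, with Tagln their largest part. Of these 11 markers 6 were negative, with Kcnj8 at -1.40 (SE 1.09) and Abcc9 at -1.33 (SE 0.78), and 5 positive, with Pdgfrb at 0.44 (SE 1.14). Of 11 endothelial markers 7 were negative and 4 positive, with a median of -0.65 and Egfl7 lowest, at -2.03 (SE 0.95) with overlap. Their sums overlapped too, at 3.27 to 6.88 in WT and 3.11 to 4.11 in Tg. The part of any of these cells in the Igfbp5 difference was not tested. In such bulk samples fewer cells of a type and less RNA per cell cannot be told apart.

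**Figure D2:**
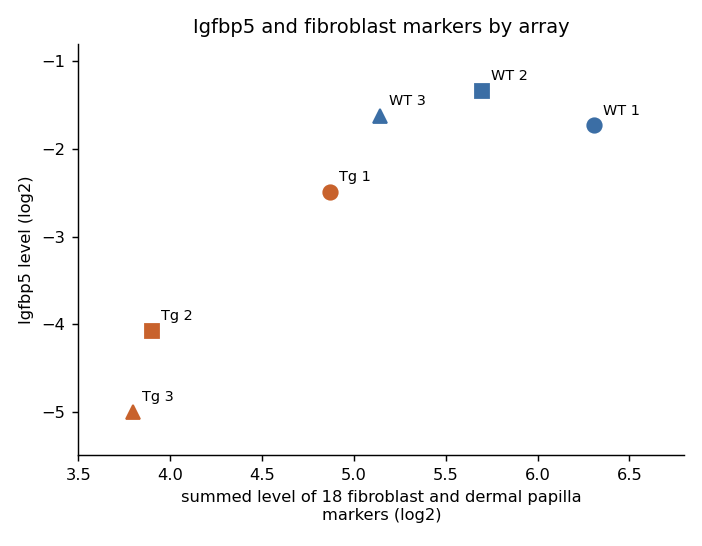
Igfbp5 level (y axis, log2) against the summed level of 18 fibroblast and dermal papilla markers (x axis, log2), 1 point per array, blue for WT and orange for K14-SCF Tg. The 3 Tg arrays lie below and to the left of the 3 WT arrays, between -5.00 and -2.49 for Igfbp5; Col1a1, Col1a2 and Col3a1 carry most of the sum on WT replicate 1, and without them the sums overlap.

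Igfbp2, the neighbour of Igfbp5, encodes a circulating binding protein and has 2 probes. Its brighter probe read -0.92, -1.37 and -0.03 in WT and -1.04, -1.08 and -1.01 in Tg. The Tg arrays lay within 0.07 log2 units of each other and inside the WT range, so the genotypes overlapped (log2 fold change -0.27, SE 0.38, 95% interval -1.20 to 0.66; limma, adjusted p = 0.990). The dimmer probe read -2.29, -6.38 and -4.64 in WT and -5.59, -7.10 and -6.18 in Tg, was above background on 2 WT arrays and 1 Tg array, and gave -1.86 (SE 1.06). Both probes were negative, but WT replicate 1 was highest on the dimmer probe and WT replicate 3 on the brighter one. The mean of both probes gave a log2 fold change of -1.07.

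Igfbp4, a binding protein that is cut by the protease PAPPA, had the widest spread within the genotypes when each gene is read by its brightest tested probe. Its levels were -2.08, -4.03 and -6.42 in WT and -2.11, -6.21 and -5.13 in Tg. Replicate 1 was the highest array of either genotype, and WT replicate 3 was not well above background. The pooled SD within a genotype was 2.15 log2 units, larger than in 98.4% of tested genes (median 0.49), and the 95% interval of the difference ran from -3.88 to 3.27, so that a change of several-fold in either direction was not detectable. The log2 fold change of -0.31 (SE 1.46) turned to 0.74 within the slide that holds all arrays but WT replicate 1.

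Igfbp3, the main IGF carrier of blood plasma, was well above background on 0 of 3 WT arrays and on 1 of 3 Tg arrays. Its levels were -6.65, -8.60 and -7.55 in WT and -1.17, -7.25 and -7.08 in Tg. Tg replicate 1 stood alone, while the other 2 Tg arrays lay inside the WT range, so the genotypes overlapped. Each WT array was then given its lowest signal of any spot well above background in place of the dimmer Igfbp3 signal. Tg replicate 1 was 30.5-fold above the mean of these WT values. The Tg mean was 1.91-fold above it, but this rests on that 1 array. The 1.91-fold is not a lower bound, since the other 2 Tg arrays were not above background and were kept as read. Nor is the 30.5-fold a strict bound, since a brighter spot can still fail to be well above background. Igf2 on WT replicate 3 did so, at -5.64 against the -5.75 used for that array. Without the filter on dim probes the fitted log2 fold change was 2.43 (SE 1.72; limma, unadjusted p = 0.206). The same array was also the only 1 on which the dimmest Igf1 probe was above background.

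Igfbp6, a binding protein that prefers IGF2, read -0.94, -1.86 and -0.53 in WT and -1.40, -1.57 and 0.63 in Tg. Tg replicate 3 was the highest of the 6 arrays and the other 2 Tg arrays fell inside the WT range (log2 fold change 0.33, SE 0.69; limma, adjusted p = 0.998). Without that array the value was -0.37. Igfbp7, a matrix protein that binds IGFs weakly, read -0.90, 0.27 and 0.63 in WT and -1.15, -0.15 and -0.55 in Tg. Its genotypes overlapped, with replicate 1 lowest in both, and the value was -1.07 (SE 0.39) without WT replicate 1; over all arrays the log2 fold change was -0.62 (SE 0.49, 95% interval -1.82 to 0.59; limma, adjusted p = 0.978).

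**Figure D3:**
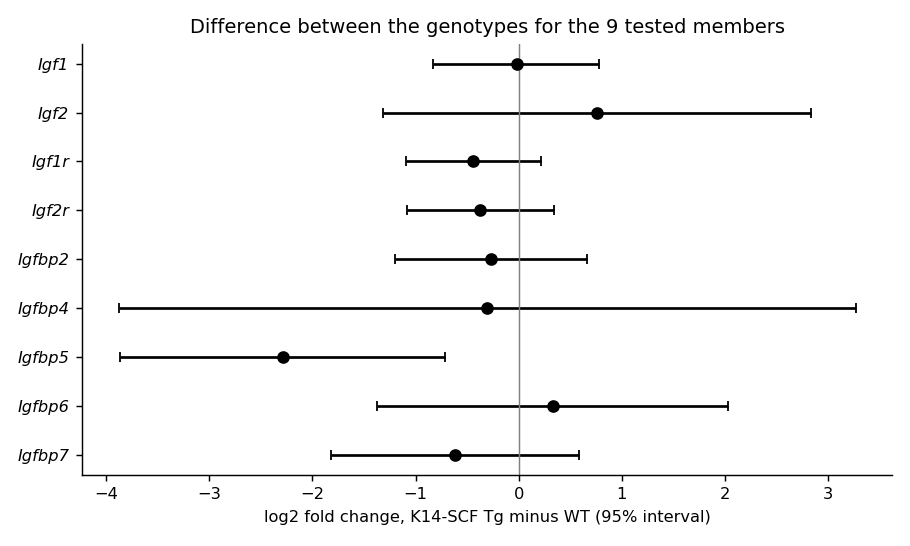
Log2 fold change, K14-SCF Tg minus WT, of the 9 tested members (x axis), with bars for the 95% interval of the limma fit before adjustment, 3 arrays per genotype. The Igfbp5 interval lies below 0 and the other 8 include 0; no member passed after adjustment.

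The ligands came next. Igf1 has 4 probes, each printed as 2 spots, and they gave different pictures. The brightest read -1.51, -2.05 and -1.79 in WT and -1.26, -2.02 and -2.14 in Tg, with no shift between the genotypes beyond its error (log2 fold change -0.02, SE 0.33, 95% interval -0.83 to 0.78; limma, adjusted p = 1.00). A second probe (A_55_P2031631) read -4.75, -5.83 and -0.71 in WT and -5.23, -4.17 and -6.11 in Tg. Another (A_55_P2085984) read -4.65, -6.72 and -0.16 in WT and -4.80, -4.13 and -6.38 in Tg. On both of these probes WT replicate 3 alone stood high, whereas on the brightest probe it lay in the middle. On that array the SD between the 2 spots was 0.03 log2 units for the former probe and 0.06 for the latter, so the value was repeated within the array. The summed level of 11 endothelial markers was also highest on WT replicate 3, at 6.88 against 3.11 to 4.56 on the other arrays, while that of 11 leukocyte markers, at 6.29, lay within the range of the rest (3.91 to 8.55). The fibroblast and dermal papilla sum was the lowest of WT there, at 35.2 against 79.4 and 52.0. The keratinocyte sum was highest there, at 149 against 117 to 146 elsewhere, but Trp63 made up most of it on every array. On WT replicates 1 to 3 Trp63 read 6.76, 6.89 and 7.14 and Itga6 -0.10, 0.01 and 0.21. Krt14 read 0.60, 3.28 and 0.86 and Krt15 1.18, 1.52 and 0.40, both highest on WT replicate 2. The endothelial markers differed as well. On WT replicates 1 to 3 Pecam1 read -3.49, -4.67 and 0.38 and Esam -0.17, -0.69 and 0.20. Kdr, at 0.59, 0.95 and 0.83, and Plvap, at -2.38, -0.41 and -0.79, were instead highest on WT replicate 2. The part of such cells in the Igf1 values was not tested. The fourth probe was above background on Tg replicate 1 alone, at -4.06 against -8.54 to -7.51 elsewhere. The mean of the tested Igf1 probes gave a log2 fold change of -0.90 (SE 1.05), against -0.02 for the brightest. The files name all 4 probes by the same transcript accession and hold no probe sequences, so which Igf1 transcripts each one reads is not settled here.

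**Figure D4:**
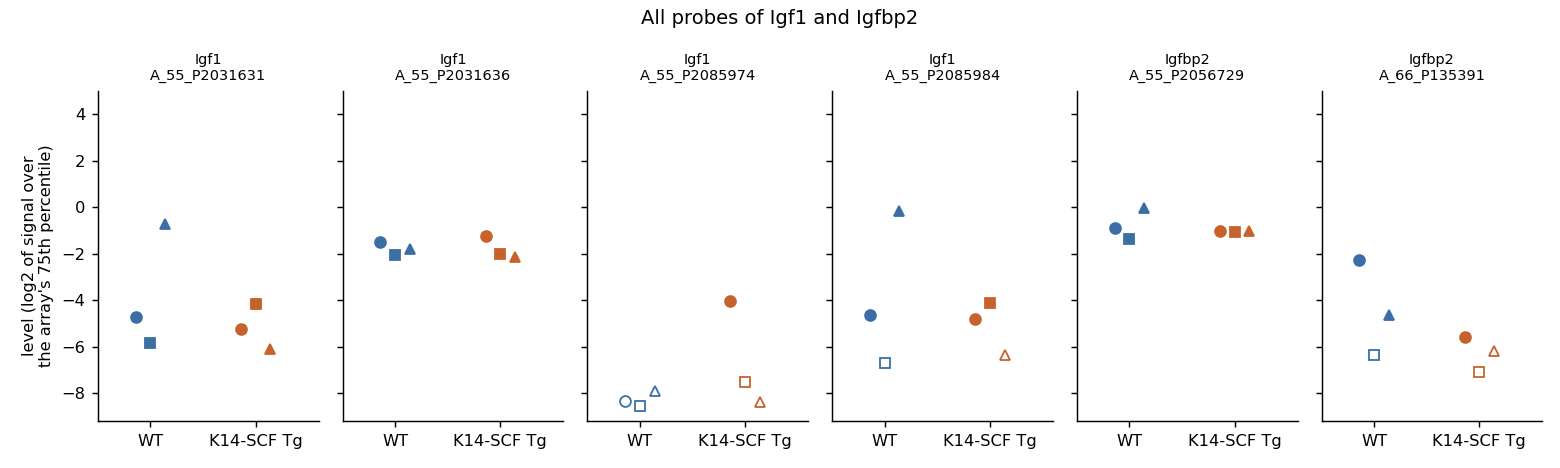
Level on each array for the 4 probes of Igf1 and the 2 probes of Igfbp2 (y axis, log2 of signal over the array's 75th percentile; circles, squares and triangles are replicates 1, 2 and 3; open symbols are not well above background). WT replicate 3 stands high on 2 Igf1 probes, at -0.71 and -0.16, and in the middle of WT on the brightest, at -1.79.

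Igf2, the ligand expressed mainly before birth from the paternal allele, read close to background. It read -5.60, -6.00 and -5.64 in WT and -6.28, -5.64 and -3.03 in Tg, with WT replicate 3 and Tg replicate 1 not well above background. Tg replicate 3 alone stood above the rest, and the difference (0.76, SE 0.85; limma, adjusted p = 0.988) was -0.22 without it. Of the 13 genes listed as regulators of IGF transcripts or imprinted neighbours, 11 were tested; H19, the noncoding RNA imprinted opposite to Igf2, was not above background often enough.

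Neither receptor gene passed the test. Igf1r, the signalling receptor, read 0.75, 1.15 and 1.34 in WT and 0.46, 0.91 and 0.56 in Tg. The 2 lowest arrays were Tg and the 2 highest WT, with overlap between (log2 fold change -0.44, SE 0.27, 95% interval -1.09 to 0.22; limma, adjusted p = 0.953). Igf2r read 3.57, 4.25 and 3.64 in WT and 3.61, 3.58 and 3.16 in Tg, with WT replicate 2 highest and Tg replicate 3 lowest (log2 fold change -0.37, SE 0.29, 95% interval -1.08 to 0.34; limma, adjusted p = 0.977). The Igf2r probe is printed 10 times per array. Its repeats show the noise between spots of 1 array, and not that of amplification, labelling or hybridisation. The SD between its 10 spots was 0.04 to 0.08 log2 units on each array, against an SD of 0.37 between WT arrays and 0.25 between Tg arrays. For both receptors the intervals, before adjustment, leave out a log2 fold change below -1.09 or above 0.34, and do not show that the genotypes are alike. Airn, the noncoding RNA antisense to Igf2r that silences it on the paternal allele, had a log2 fold change of 0.23 (SE 0.21) without overlap at its brighter probe and -0.65 at another.

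Other genes of the pathway were read in lists. Over all genes 5.13% were higher and 5.41% lower without overlap, and 2.85% were higher and 2.56% lower at an unadjusted p under 0.05. Among 26 tested genes that bind, carry or release IGFs (29 listed), 14 were positive and 12 negative, with a median of 0.14, and 2 were higher and 1 lower without overlap. Limma called 0 of them, with 1 higher and 0 lower at an unadjusted p under 0.05. That 1 was Ccn2, connective tissue growth factor, which has a domain like that of the binding proteins. It read -2.82, -0.05 and -0.80 in WT and 1.32, 0.23 and 2.32 in Tg (log2 fold change 2.51, SE 0.86; limma, adjusted p = 0.863). Its relative Ccn1 was at -0.89 (SE 0.40), with overlap. Plat, the plasminogen activator of tissue, was lower without overlap (-0.51, SE 0.24), and Pappa2, a binding protein protease, was higher without overlap (1.35, SE 0.77), with -5.73 to -5.34 in WT and -2.43, -5.07 and -5.19 in Tg. Pappa itself was at 0.26 (SE 0.31) and Igfbp1, which lies next to Igfbp3 on chromosome 11, at 0.20 (SE 0.87).

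Next came the receptors' relatives and the chains downstream of them, whose counts are read against the same shares of all genes. Of 23 tested insulin family ligands, receptors and adaptors (25 listed), limma called 0, with 0 also at an unadjusted p under 0.05, and the median was -0.06. The insulin receptor gene Insr was at -0.15 (SE 0.24), the adaptor genes Irs1 at 0.03 (SE 0.30) and Irs2 at 0.24 (SE 0.21), the last without overlap, and Sh2b1, another adaptor, was lower without overlap (-0.41, SE 0.23). Of 29 genes of the PI3K, AKT, FOXO and mTOR chain, 29 were tested, 19 were negative and 10 positive, and the median was -0.10. Limma called 0, with 1 lower and 0 higher at an unadjusted p under 0.05. That 1 was Pik3cb, a catalytic subunit of PI3K, which read -1.08, -0.34 and -0.80 in WT and -2.10, -2.14 and -1.46 in Tg. Its Tg arrays lay below all WT arrays (log2 fold change -1.16, SE 0.32; limma, adjusted p = 0.705). Without overlap 1 gene of this list was higher and 2 were lower. The higher was Tsc2, a brake on mTOR (0.57, SE 0.25; limma, adjusted p = 0.918), and the lower were Pik3cb and Deptor (-0.21, SE 0.21). Akt1 was at -0.15 (SE 0.21) and Mtor at -0.28 (SE 0.33). Among the 11 regulators and imprinted neighbours the median was -0.06, and limma called 0, with 0 at an unadjusted p under 0.05.

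**Figure D5:**
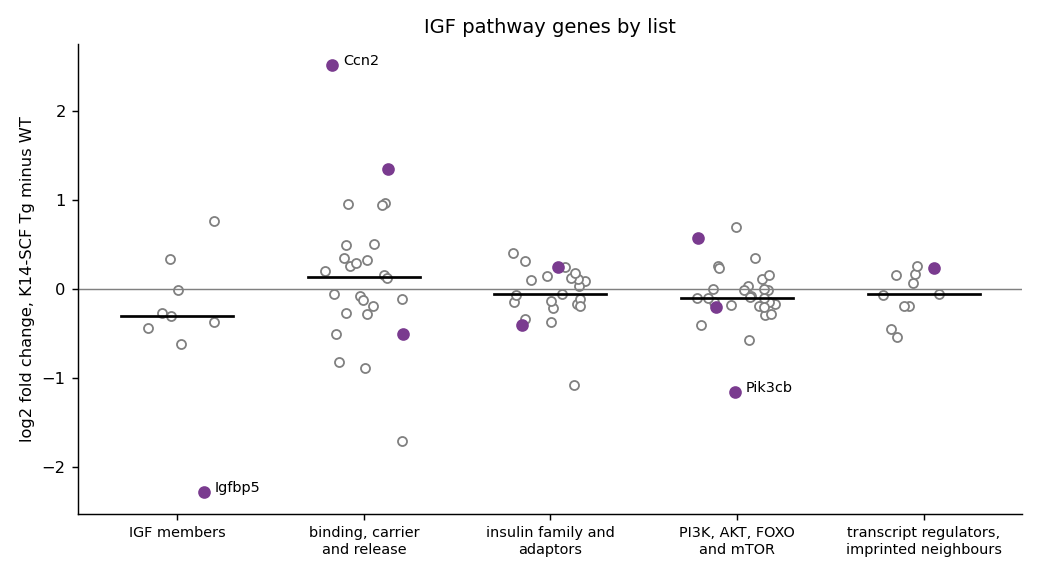
Log2 fold change, K14-SCF Tg minus WT (y axis), of each tested gene in the IGF members and the 4 lists of other pathway genes. Filled points are genes whose genotypes did not overlap, and lines are list medians, between -0.31 and 0.14; 0 genes in these lists passed the adjusted test.

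The tested genes whose profile over the 6 arrays was most like that of a member were found by Pearson's r, as a description among 18368 genes that share arrays and scaling. For Igfbp5 they were Gcc2 (r = 0.996), a protein of the Golgi, Gm9465 (0.990) and Hapln2 (0.988), a link protein of hyaluronan matrix. Gcc2 stood at -2.20, -2.09 and -2.08 in WT and -2.57, -3.78 and -4.28 in Tg, and so shared the order of the 3 Tg arrays. For Igf1r they were 2410137M14Rik (0.975), Vcan (0.974), the matrix proteoglycan versican, and Idi2 (0.973). For Igf2r the nearest was Atxn10 (0.990), for Igfbp7 Il18bp (0.992), for Igfbp6 Gm5176 (0.997), for the brighter Igfbp2 probe Ntn1 (0.997) and for the brightest Igf1 probe Gh (0.995). Among all pairs of the tested members, Igf1r and Igfbp7 had the highest r, 0.94 over the 6 arrays, followed by Igf2 and Igfbp6 at 0.89. Both are the largest of many pairs and were not tested.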

How the data were processed

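The data are 6 arrays, 1 for each of 3 WT and 3 K14-SCF Tg samples. Per the file headers, spots were read by the authors with Agilent Feature Extraction 10.7.1.1 (1 colour, design build mm9). The intensity values deposited are the processed signal, after background subtraction and a spatial detrend, and the median spot and background signals; flags are 0 or 1. The authors' value table holds a linear ratio: it equals the processed signal over 1 constant per array (1404.6 to 1678, 100% of the probes compared, within 0.001 plus 0.05%), with column medians of 0.169 to 0.188, uncentred. Per the labels, cDNA of the sorted cells was amplified and labelled before hybridisation.

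Control and outlier spots were left out, spots of a probe were averaged on the log2 scale, and each array's 75th percentile was subtracted. A probe was well above background if at least 50% of its spots were. Probes with this on at least 3 of 6 arrays were tested by limma 3.58.1 in R 4.3.3 (2-sided, no covariates, Benjamini-Hochberg over 47709 probes, adjusted p under 0.05). The fit was afterwards also run on data simulated from the means and SDs of the tested genes, whose outcome is not reported here. Names came from the RefSeq accession of a probe (28331 of 29786 matched, GRCm38.p6). A gene was its tested probe with the highest mean. The members and lists were chosen with earlier results of these data known. The text names all members with every probe, genes of each list with the smallest p and Hpse as a called gene. It also names the defining markers Col1a1, Pdgfra, Pecam1, Rgs5, Krt14, Mitf, Dct and Kit, and the genes of highest r to members above background on 6 arrays. Not every gene so chosen is printed. Col3a1, H19, Insr, Irs1, Irs2, Akt1, Mtor, Pappa, Pappa2, Igfbp1, Trp63, Krt15, Tagln and Pdgfrb were added after their values were seen. So were Kdr, Plvap and Deptor. Alternatives covered scaling, background correction, filters, slide, pairing, variance, probes and left-out arrays.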

Additional observations from a re-analysis of the deposited data

How the results depend on the processing

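No tested member was called under any of 17 alternatives (9 members tested, or 7, without Igf2 and Igfbp4, on probes above background on all 6 arrays, smallest limma adjusted p = 0.616, for Igfbp5 without Tg replicate 1). Igfbp5, Igf1r, Igf2r and Igfbp7 stayed negative in all of them, Igfbp5 between -2.98 (without Tg replicate 1) and -1.64 (normexp on median signals). The median over the members stayed between -0.44 and -0.23. Signs turned elsewhere. With slide as a block, the same as leaving out WT replicate 1, Igf1 was at 0.11 and Igfbp4 at 0.74. Without both arrays of slide row 2 (replicate 3 of each genotype, chosen after the data were seen), Igf1 was at 0.14, Igf2 at -0.16, Igfbp2 at 0.084 and Igfbp6 at -0.084, and Igfbp5 at -1.75 (SE 0.65). Leaving out 1 array at a time gave -0.30 to 0.14 for Igf1, -0.22 to 1.41 for Igf2, -0.57 to 0.10 for Igfbp2, -1.49 to 0.74 for Igfbp4, -0.37 to 0.72 for Igfbp6 and -1.07 to -0.30 for Igfbp7. The mean of a gene's probes gave -0.90 for Igf1 and -1.07 for Igfbp2. The count of genes called higher went from 1 to 0 with normexp, on probes above background on all 6 arrays, with slide or replicate block, trended and robust variance, the mean of probes, without row 2 and without any 1 array (0 to 0). The cause was not tested. Deviations of same-numbered arrays had correlations of 0.02, 0.05 and 0.13, and those of other pairs ranged from -0.098 to 0.055. With 3 arrays per genotype these cannot decide whether the numbers pair the samples. With the replicate block Igfbp5 was at -2.29 (SE 0.62, limma adjusted p = 0.737). The SE fell from 1.46 to 0.77 for Igfbp4, from 0.69 to 0.40 for Igfbp6 and from 0.49 to 0.29 for Igfbp7. Without the 3 collagens, a choice made after the data were seen, the log2 difference of the fibroblast sum moved from -1.53 to -0.64. Another scaling, median centring, shifted all genes' median to -0.10 and reversed no member. Near background, signal limits Igf2, Igfbp3 and Igfbp4.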
